A study of Mus musculus with 48 samples.

Results

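The gene described here is Nphs1, the mouse gene of nephrin, followed across every treatment group of a study of vancomycin kidney toxicity. It was read from 1 probe set of the 45101 in the table, and the platform annotation lists 1 probe set for Nphs1. Kidney RNA of 48 female BALB/c mice was profiled on single-colour Affymetrix arrays, with 1 mouse on each array and no pooling named in the labels. Mice were injected once a day for 7 days with vancomycin, a glycopeptide antibiotic that is toxic to the kidney, or with physiological saline alone, and were killed on day 8. The groups held 6 mice each and received saline or 50, 200 or 400 mg/kg of vancomycin per day by the intraperitoneal route (ip), or saline or the same daily doses by the intravenous route (iv), so each route had a saline group of its own. No genetic change was made in any mouse, and no age was given in the labels. The RNA came from a small piece of kidney, and the labels do not say from which zone. Nphs1 is expressed in the glomerulus, a minor part of kidney tissue, and in such bulk RNA fewer podocytes and less Nphs1 RNA per podocyte cannot be told apart.

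Nephrin is a transmembrane protein of the immunoglobulin family made by podocytes, the epithelial cells that wrap the capillaries of the glomerulus with interlocking foot processes. Nephrin molecules of neighbouring foot processes meet across the gap between them and, with the related protein Neph1 (gene Kirrel), form the slit diaphragm, the last layer of the filter that holds plasma proteins back. Its intracellular tail binds the membrane protein podocin and the adaptor Cd2ap, and once phosphorylated by the kinase Fyn it recruits the Nck adaptors, which connect it to actin. Loss of nephrin in humans and in mice causes heavy protein loss into the urine.

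The start of the gene is shown because Nphs1 transcription in podocytes is known to be driven by the zinc finger factor WT1. The RefSeq sequence around the transcription start site lies on the plus strand of chromosome 7 at chr7:30459808-30460107 (GRCm38.p6) and runs from 250 bases before the start to 50 bases after it. Capitals mark matches to GNGNGGGNG, a loose form of the G-rich element that WT1 and EGR1 bind.
Nphs1 promoter: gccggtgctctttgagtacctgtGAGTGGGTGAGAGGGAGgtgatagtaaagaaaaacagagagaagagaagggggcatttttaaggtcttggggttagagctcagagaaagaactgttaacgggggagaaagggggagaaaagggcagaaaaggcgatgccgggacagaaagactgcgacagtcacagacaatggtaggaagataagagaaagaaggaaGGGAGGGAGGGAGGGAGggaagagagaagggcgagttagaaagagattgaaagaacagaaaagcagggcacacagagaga
GNGNGGGNG matched this window at 5 overlapping positions in 2 places, all on the printed strand, and 39.8% of the 32544 promoters of the same length held at least 1 match on either strand. The E-box motif CANNTG had 0 matches on either strand, whereas 72.3% of the promoters held it. The strand printed was 77.7% A or G, above 99.97% of the promoters, whose median was 50.3%, and its longest run of A and G was 46 bases. These are matches of letters only, and binding was not measured.

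The name Nphs1 rests on a position in the table. The deposited values do not stand beside their own probe set identifiers, and in the stretch of the table that holds Nphs1 the values belong to the identifiers 47 rows earlier. Within 500 rows on either side of Nphs1, neighbouring probe sets annotated to the same gene had a median correlation of 0.55 between their within-group residuals at this offset (46 pairs), the highest of the 121 offsets compared. The next highest offset gave 0.40, and the table as listed gave 0.28 over 31 pairs. A same-gene pair 4 rows from Nphs1, the 2 probe sets of the protease gene Plau, correlated at 0.95. The values printed beside the Nphs1 identifier itself averaged 4.15 (log2 intensity), and with them the difference between ip 400 mg/kg and ip saline was -0.23 (adjusted p = 0.20), so every result below holds only as far as the offset does. The label was also checked against 51 other genes known from podocytes. With group means removed, the 51 other podocyte genes had a median correlation with Nphs1 of 0.05 and ranged from -0.34 to 0.35, beside a median of 0.02 over all genes. Synpo stood at 0.18 and Wt1 at -0.12. Within groups the values named Nphs1 thus correlated with the other podocyte genes about as they did with all genes, and these data give the podocyte label no support beyond the table position. The antisense transcript Nphs1os overlaps the gene and was not analysed here.

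The arrays of the routes differed as a whole. The 90th percentile of an array lay between 9.07 and 9.23 (log2 intensity) in the 24 ip arrays and between 8.28 and 8.75 in the 24 iv arrays, without overlap. Array medians overlapped, at 3.47 to 3.68 for ip and 3.34 to 3.55 for iv. Differences between routes at the same dose therefore carry this scale difference. Each dose effect was taken against the saline group of its own route, which does not remove a difference in spread. The size of dose effects, and their difference between routes, can therefore carry it too. Medians of 4 iv arrays, 1 in each iv group, stood apart from their groups, and the route difference of Nphs1 and list counts that changed without them are also given so. In all 48 arrays Nphs1 lay above the table's median of 3.47.

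Nphs1 had overlapping levels in ip saline, ip 50 and ip 200 mg/kg kidneys and was lower at ip 400 mg/kg. In ip saline kidneys it ran from 5.77 to 6.68 with a median of 6.06 (log2 intensity, n = 6). At ip 50 mg/kg it ran from 5.89 to 6.22 with a median of 6.01. At ip 200 mg/kg it ran from 5.79 to 6.59 with a median of 6.48. These ranges overlapped, and the upper values at ip 200 mg/kg lay within the range of ip saline. At ip 400 mg/kg it ran from 4.72 to 5.29 with a median of 5.16, and the highest of these mice lay below the lowest mouse of every other ip group.

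In iv kidneys the groups overlapped throughout. In iv saline kidneys Nphs1 ran from 4.73 to 5.45 with a median of 5.39 (log2 intensity, n = 6), and 5 of the 6 mice lay between 5.32 and 5.45. At iv 50 mg/kg it ran from 5.19 to 6.15 with a median of 5.47. At iv 200 mg/kg it ran from 4.70 to 5.58 with a median of 5.01. At iv 400 mg/kg it ran from 4.75 to 5.53 with a median of 5.29. No iv group lay wholly above or below another.

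**Figure D1:**
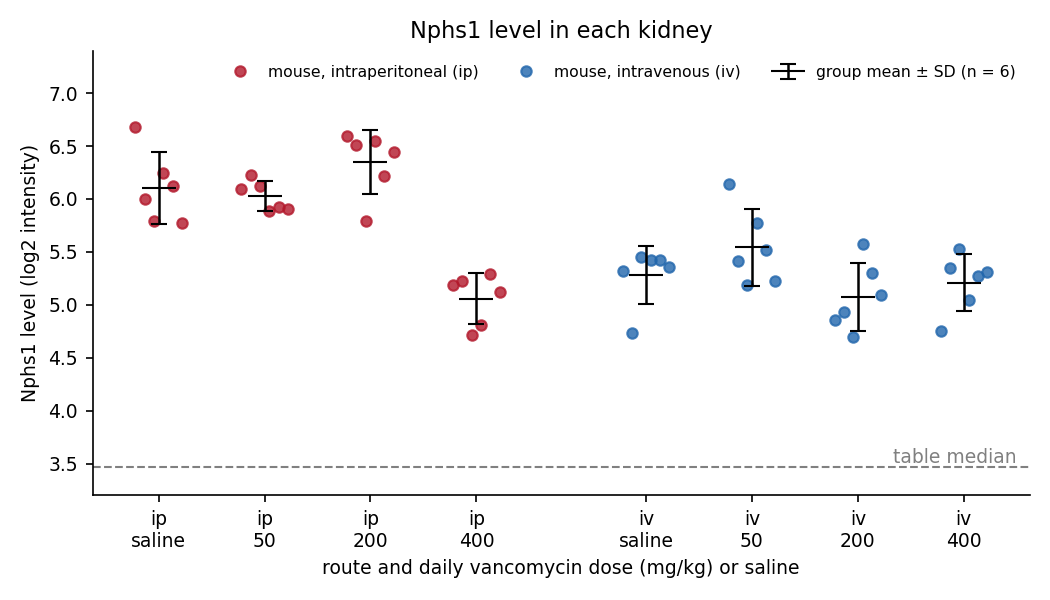
Nphs1 level (log2 intensity) in each of the 48 kidneys, by route and daily vancomycin dose, with each point 1 mouse, the bars the group mean ± SD (n = 6) and the dashed line the median of the whole table. The ip 400 mg/kg mice, at 4.72 to 5.29, lie below all other ip mice and within the range of the iv groups.

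The first question was what each dose did to Nphs1 by the ip route. Nphs1 fell at ip 400 mg/kg, to 5.06 ± 0.24 against 6.10 ± 0.34 in ip saline (log2 intensity, SD, n = 6 each). The log2 fold change was -1.04 ± 0.17 (SE, limma, adjusted p = 6.1e-07), a change of -51.4% in intensity, with a 95% interval of the ratio from 0.385 to 0.613. All 6 mice at ip 400 mg/kg lay below all ip saline mice, and the two-sided exact permutation test gave p = 0.00216, the smallest that 6 against 6 allows. In this comparison 61.3% of the 5748 genes tested passed and 25.1% fell, so a call by itself was common. The size of the fall was less so, since 7.86% of the tested genes fell further and the median change of all genes was 0.11, or -0.01 after quantile normalization.

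At the lower ip doses no difference from saline passed the test. At ip 50 mg/kg the mean was 6.03 ± 0.14 against 6.10 ± 0.34 in ip saline, a log2 difference of -0.07 with a 95% interval from -0.41 to 0.26. At ip 200 mg/kg the mean was 6.35 ± 0.31, a log2 difference from ip saline of 0.25 with an interval from -0.09 to 0.58. Only 0.087% of the tested genes were called at either of these doses. The step in Nphs1 lay between the upper ip doses, and it was 2.44-fold lower at ip 400 than at ip 200 mg/kg, with a log2 fold change of -1.29 ± 0.17 (SE, limma, adjusted p = 5.7e-09). All 6 mice at ip 400 mg/kg lay below all ip 200 mg/kg mice, and in that comparison 60.6% of the tested genes passed, with 25.3% lower at ip 400 mg/kg.

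By the iv route no dose gave a difference that passed. At iv 400 mg/kg Nphs1 averaged 5.21 ± 0.27 against 5.29 ± 0.27 in iv saline (log2 intensity, SD, n = 6 each). The log2 difference was -0.08 (limma, adjusted p = 0.73), with a 95% interval from -0.41 to 0.26, which does not reach the fall measured by the ip route. In the same comparison 49.7% of the tested genes passed. At iv 200 mg/kg the mean was 5.08 ± 0.32, a log2 difference from iv saline of -0.21 with an interval from -0.54 to 0.13 (-0.13 without the 4 iv arrays), and 7.36% of the genes passed. At iv 50 mg/kg the mean was 5.55 ± 0.36, a log2 difference from iv saline of 0.26 with an interval from -0.08 to 0.60, and 0.539% of the genes passed.

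The effect of 400 mg/kg on Nphs1 differed between the routes. The ip effect minus the iv effect was -0.96 ± 0.24 (log2, SE, limma, adjusted p = 0.011), with a 95% interval from -1.44 to -0.49. This difference passed for 4.31% of the tested genes, 1.37% in the same direction and 2.94% in the other, and 0.922% of genes had a lower value than Nphs1. Of the genes that passed, 169 had a higher and 79 a lower effect by the ip route, and after quantile normalization 103 and 110. Without the 4 iv arrays that stood apart it was -0.94 (adjusted p = 0.021). At 200 mg/kg the effect by ip minus that by iv was 0.46, with an interval from -0.02 to 0.93, and at 50 mg/kg it was -0.33, with an interval from -0.81 to 0.14. Neither of these passed, and 0.974% and 0.191% of the tested genes did.

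**Figure D2:**
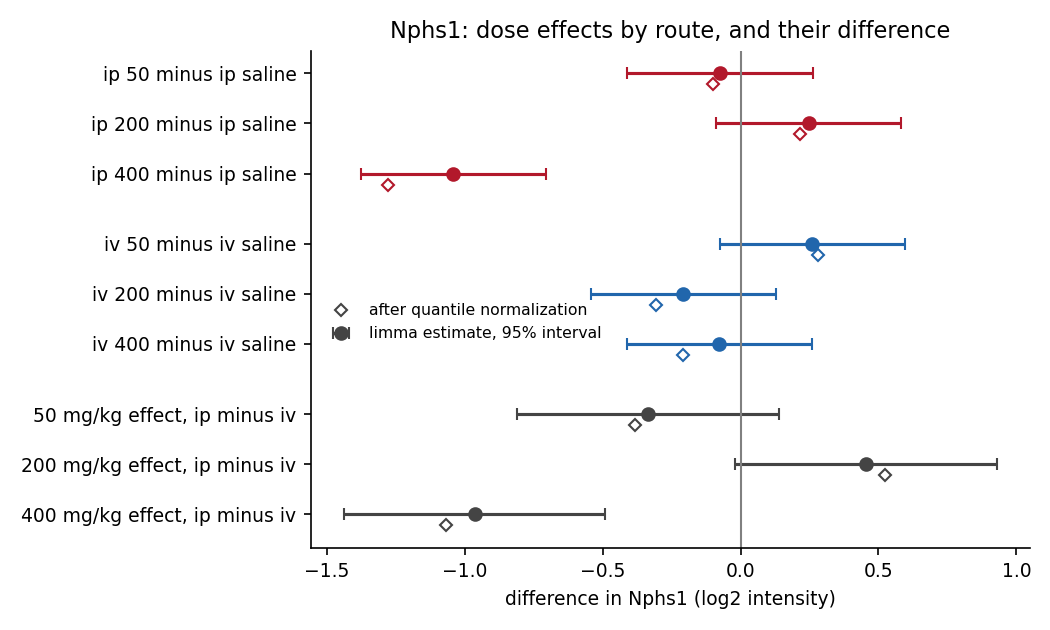
Differences in Nphs1 (log2 intensity), with ip dose effects at the top, iv dose effects in the middle and the ip effect minus the iv effect at the bottom. Filled points are limma estimates with 95% intervals and open diamonds the same differences after quantile normalization. The effect of ip 400 mg/kg (-1.04) and the difference between routes at 400 mg/kg (-0.96) lie away from 0.

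The fall by the ip route started from a higher level. Nphs1 in ip saline, at 6.10 ± 0.34, lay above iv saline, at 5.29 ± 0.27, without overlap between the groups (log2 difference 0.82 ± 0.17, SE, limma, adjusted p = 6.6e-05). In this comparison 57.7% of the tested genes passed, 55.1% higher and 2.57% lower in ip saline, and the median over all genes was 0.41, so a higher value in ip arrays was the common case, whereas after quantile normalization 626 genes were higher and 718 lower in ip saline. When each array was centred on its median the difference was 0.65. After quantile normalization, which gives all arrays the same distribution, it was 0.32 and no longer passed (adjusted p = 0.18). The ip minus iv difference in level was 0.48 at 50 mg/kg, 1.27 at 200 mg/kg and -0.15 at 400 mg/kg as deposited, and -0.06, 0.84 and -0.75 after quantile normalization. The level of Nphs1 at ip 400 relative to iv 400 mg/kg thus depended on the scaling, whereas its fall at ip 400 mg/kg relative to ip saline was -1.14 after centring and -1.28 after quantile normalization.

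By mean level the groups ran from ip 200 mg/kg, at 6.35, through ip saline, ip 50, iv 50, iv saline, iv 400 and iv 200 mg/kg to ip 400 mg/kg, at 5.06. None of the 7 pairs of neighbours in this order differed by the exact permutation test with Benjamini-Hochberg adjustment over the pairs (adjusted p from 0.14 to 0.91). The ranges of each pair overlapped. Neighbours were picked by these same means and are close by choice, so the lack of a difference says little about the groups. The widest gap lay between ip 50 and iv 50 mg/kg, at 0.48 (exact p = 0.019 before adjustment). After quantile normalization the order changed, and the pair of iv 200 and ip 400 mg/kg differed by 0.65 (exact permutation test, adjusted p = 0.015).

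**Figure D3:**
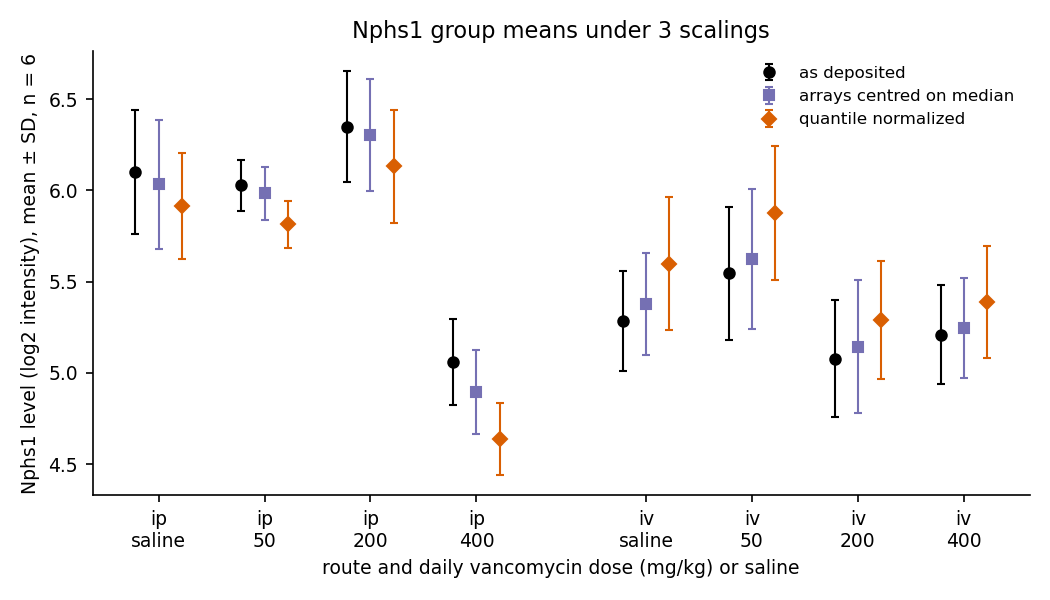
Group means of Nphs1 (log2 intensity) ± SD (n = 6) by route and daily dose under 3 scalings, with circles for the deposited values, squares for arrays centred on their medians and diamonds for quantile normalization. The ip 400 mg/kg group is the lowest of the ip groups under each of them, and the gap between the routes in saline narrows from 0.82 to 0.32.

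The other genes of the slit diaphragm were then set beside Nphs1. Of 26 genes listed for this structure and its signalling, 16 had a name in the stretches used and passed the filter. At ip 400 mg/kg 12 rose and 1, Nphs1, fell, in a comparison where 36.3% of all genes rose and 25.1% fell. The median log2 change of the 16 was 0.84, against 0.11 over all genes. At iv 400 mg/kg 10 rose and 0 fell, with a median of 0.56 against 0.09 over all genes, and 30.7% of all genes rose and 19% fell. Without the 4 iv arrays that stood apart the ip 400 mg/kg counts were 13 and 1, and after quantile normalization they were 11 and 2, the added fall being that of the scaffold gene Magi1. These are genes that other cells of the kidney also express, so their whole-kidney level is not that of podocytes alone. Beside them the proximal tubule list fell and the injury and myeloid lists rose, with values given further on, and the part of these in the counts was not tested.

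Among the cell surface members, Kirrel, the gene of the nephrin partner Neph1, averaged 6.50 ± 0.62 at ip 400 mg/kg against 4.68 ± 0.62 in ip saline (log2 intensity, SD, n = 6 each) and rose by 1.82 (limma, adjusted p = 1.0e-06). Kirrel also rose at iv 400 mg/kg, by 0.81 (adjusted p = 0.022). Fat1, a giant protocadherin of the slit, rose by 2.07 at ip 400 and by 1.84 at iv 400 mg/kg. The cadherin gene Cdh3 rose by 1.65 and by 0.86, although its ip saline mean lay at or below the table median, where levels are not told from background. Ptpro, a receptor phosphatase of the podocyte surface, rose by 0.75 at ip 400 mg/kg and differed by 0.13 at iv 400 mg/kg, which did not pass. At ip 400 mg/kg these 4 genes thus rose in kidneys where Nphs1 fell.

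Among the intracellular members, the adaptor Cd2ap rose by 0.90 at ip 400 and by 0.70 at iv 400 mg/kg. The junction scaffold Tjp1, or ZO-1, rose by 0.86 and by 0.72. The actin adaptor Nck1 rose by 0.90 and by 1.02, and its relative Nck2 by 0.64 and by 0.56. The actin scaffold Iqgap1 rose by 1.07 and by 0.96, and the membrane scaffold Cask by 0.53 and by 0.36, calls that ended after quantile normalization. Fyn, the kinase that phosphorylates nephrin, differed by 0.43 and by 0.14 and passed in neither comparison, but its ip 400 mg/kg difference passed when the 4 iv arrays were left out. Magi1 (-0.18 and -0.07) passed in neither comparison, and its mean in every iv group lay at or below the table median. Of the polarity complex, Prkci, an atypical protein kinase C, rose by 0.82 and by 0.55, whereas Pard6b (-0.11 and -0.04) did not pass. Pard3, the scaffold of that complex, rose by 0.89 at ip 400 mg/kg and differed by 0.23 at iv 400 mg/kg. Its route difference of 0.66 passed (adjusted p = 0.033), but not without the 4 iv arrays (0.055) or after quantile normalization (0.14). Nphs1 and Pard3 were the 2 slit diaphragm genes of 16 with a route difference at 400 mg/kg that passed, beside 4.31% of all tested genes.

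Of 24 genes listed for the foot process cytoskeleton and surface, 9 were tested, of which 3 rose and 2 fell at ip 400 mg/kg and 4 rose and 1 fell at iv 400 mg/kg. The ip 400 mg/kg counts lie near the shares of all genes, of which 36.3% rose and 25.1% fell. At iv 400 mg/kg 30.7% of all genes rose and 19% fell. Without the 4 iv arrays 3 rose and 3 fell at ip 400 mg/kg and 2 rose and 1 fell at iv 400 mg/kg, and with centred arrays 2 rose and 3 fell at ip 400 mg/kg. The falls were in Arhgap24, a Rac-inactivating protein of podocytes (-1.02 at ip 400 and -0.78 at iv 400 mg/kg), and in Mme, or neprilysin, a peptidase that the proximal tubule also makes (-0.97 at ip 400 mg/kg). Mme differed by -0.62 at iv 400 mg/kg, which did not pass. Synaptopodin, Synpo, an actin-binding protein of foot processes, rose by 0.44 and by 0.46, but its call at ip 400 mg/kg ended when arrays were centred and its call at iv 400 mg/kg ended without the 4 iv arrays. Dag1, which encodes dystroglycan, rose by 0.48 and by 0.55, and the small heat shock gene Cryab by 1.02 and by 1.11, the second of which ended without the 4 iv arrays. Efnb1, the gene of ephrin-B1, differed by -0.14 at ip 400 mg/kg and rose by 0.30 at iv 400 mg/kg, a call that ended under both scalings. Podxl, the gene of the negatively charged surface protein podocalyxin, differed by -0.68 and by -0.11 and passed in neither. Its mean lay at or below the table median at ip 400 mg/kg and in every iv group, iv saline included.

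Of 19 genes listed as podocyte transcription and growth factors, 14 were tested, and 4 rose and 4 fell at ip 400 mg/kg and 4 rose and 3 fell at iv 400 mg/kg. These counts lie near the shares of all genes that rose and fell (36.3% and 25.1% at ip 400, 30.7% and 19% at iv 400 mg/kg). At ip 400 mg/kg the counts were 3 and 5 with centred arrays and 3 and 6 after quantile normalization, and at iv 400 mg/kg 4 and 4, and 4 and 5. The largest falls of the podocyte lists were here and exceeded that of Nphs1. Vegfa, the endothelial growth factor that podocytes and tubules secrete, fell by 1.55 at ip 400 and by 1.22 at iv 400 mg/kg, and the growth factor gene Bmp7 fell by 1.51 and by 1.11. The prostaglandin D synthase Ptgds rose by 1.65 and by 1.46, the transcription factor Tcf21 by 1.29 and by 0.82, and the actin regulator Wasf1 by 0.90 and by 0.74. Wt1, the factor known to drive Nphs1, averaged 5.78 ± 0.53 at ip 400 mg/kg against 5.31 ± 0.24 in ip saline, a difference of 0.47 that did not pass (adjusted p = 0.10), and differed by 0.57 at iv 400 mg/kg (adjusted p = 0.058). Foxc2, a forkhead factor of early podocytes, differed by 0.36 at ip 400 mg/kg and fell by 0.66 at iv 400 mg/kg, and its route difference of 1.02 passed (adjusted p = 0.029) except with centred arrays (0.053). The other falls at ip 400 mg/kg, named here after their values were seen, were in Sema3g (-0.48), a semaphorin, and Rab3b (-0.51), a vesicle GTPase.

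Of 17 genes of the glomerular basement membrane and its receptors, 13 were tested, of which 10 rose and 2 fell at ip 400 mg/kg, where 36.3% of all genes rose and 25.1% fell. At iv 400 mg/kg 9 rose and 1 fell, where 30.7% of all genes rose and 19% fell. With centred arrays and after quantile normalization 8 rose and 2 fell at ip 400 mg/kg and 8 rose and 1 fell at iv 400 mg/kg, as did 8 and 1 at iv 400 mg/kg without the 4 iv arrays. The linker protein gene Nid1 rose by 1.95 at ip 400 and by 1.22 at iv 400 mg/kg, the proteoglycan gene Agrn by 1.74 and by 1.42, and the laminin chain gene Lamc1 by 1.51 and by 0.93. The integrin subunits that hold podocytes to laminin also rose, Itga3 by 1.90 and by 1.36 and Itgb1 by 1.62 and by 1.13. Parva, which connects integrins to actin, rose by 0.77 and by 1.32. The falls, named after their values were seen, were in the collagen chain gene Col4a4 (-0.83 and -0.57) and, at ip 400 mg/kg, in the perlecan gene Hspg2 (-0.52). Hspg2 differed by 0.31 at iv 400 mg/kg, and its route difference of -0.82 passed (adjusted p = 0.037).

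Over the 4 podocyte lists together, 52 genes were tested with Nphs1 among them. At ip 400 mg/kg 29 rose and 9 fell, beside 36.3% and 25.1% of all genes, with a median of 0.48 against 0.11 over all genes, and 2 genes, Vegfa and Bmp7, had a lower change than Nphs1. At iv 400 mg/kg 27 rose and 5 fell, beside 30.7% and 19% of all genes, with a median of 0.41 against 0.09, and 12 genes had a lower change than Nphs1. The route difference at 400 mg/kg passed in 4 of the 52, which is 2 in each direction, against 4.31% of all genes. At iv 200 mg/kg 7 rose and 1 fell, in a comparison where 6.07% of all genes rose and 1.29% fell, and without the 4 iv arrays 5 rose and 0 fell. At ip 50, ip 200 and iv 50 mg/kg none of the 52 passed limma's adjusted test, beside 0.087%, 0.087% and 0.539% of all genes. In ip saline against iv saline 33 were higher and 0 lower, beside 55.1% and 2.57% of all genes. These counts depended on the scaling. With centred arrays 25 were higher and 2 lower in ip saline, beside 1911 and 227 of the 5748 tested genes. After quantile normalization 8 were higher and 3 lower, beside 626 and 718 of all tested genes.

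**Figure D4:**
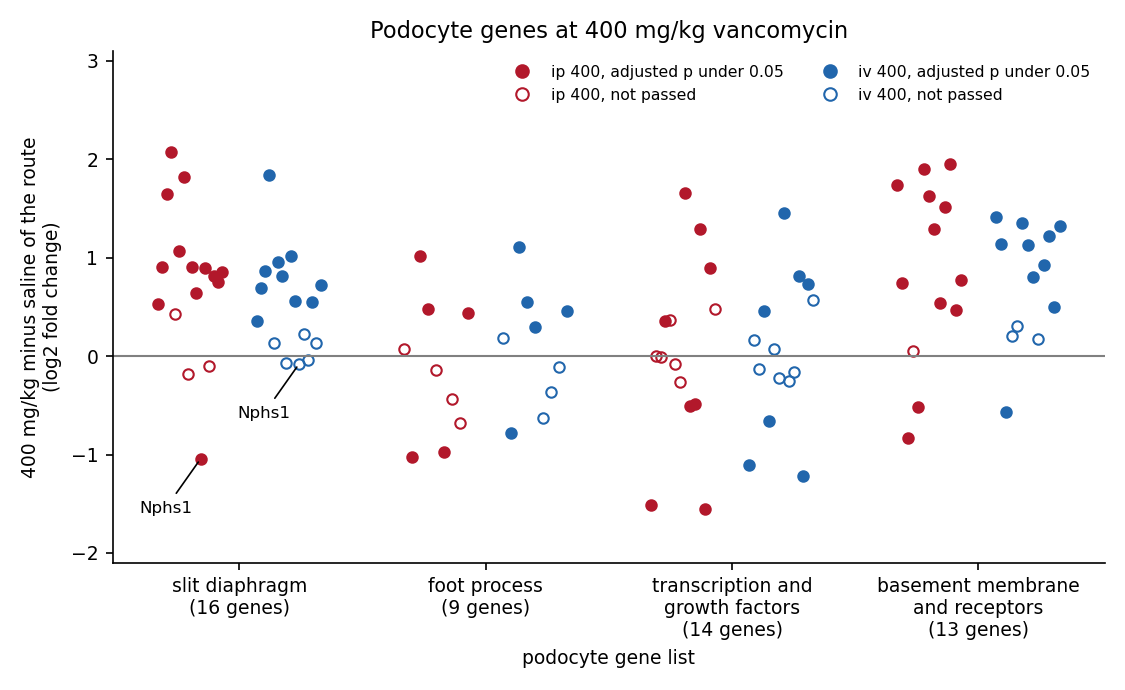
Log2 fold change of each tested podocyte gene at 400 mg/kg vancomycin relative to saline of the same route, in 4 gene lists, with ip in red at the left and iv in blue at the right of each list. Filled points passed limma's test (adjusted p under 0.05) and open points did not. In the slit diaphragm list Nphs1 is the only filled point below 0, at -1.04 for ip, and lies near 0 for iv.

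Markers of other kidney cells moved in the same kidneys. Of all tested genes 36.3% rose and 25.1% fell at ip 400 mg/kg, and 30.7% rose and 19% fell at iv 400 mg/kg. All 14 tested proximal tubule genes fell at ip 400 mg/kg, with a summed intensity of 6280 to 24073 at ip 400 mg/kg against 77265 to 89088 in ip saline. By the iv route 13 of the 14 fell, and the sum was 10012 to 43588 at iv 400 mg/kg against 50854 to 85627 in iv saline. All 14 tested tubular injury genes, of 20 listed, rose at ip 400 mg/kg, and 13 of 14 rose at iv 400 mg/kg. Their sum was 35262 to 56605 at ip 400 mg/kg against 3749 to 5711 in ip saline. In ip saline 5 of them (Krt20, Krt19, Cd44, Lrg1 and Ankrd1) averaged at or below the table median, and in iv saline 3 (Krt20, Cd44 and Serpina10). All 14 myeloid genes rose at ip 400 mg/kg, with a sum of 12874 to 30696 at ip 400 mg/kg against 686 to 1292 in ip saline. By the iv route 13 of these 14 rose, with a sum of 5732 to 15379 at iv 400 mg/kg against 692 to 829 in iv saline. Of the glomerular neighbours of podocytes, all 6 mesangial and renin cell genes rose by both routes, but 5 of 6 at ip 400 mg/kg under either other scaling and 5 of 6 at iv 400 mg/kg without the 4 iv arrays. Of 11 endothelial genes 2 rose and 2 fell at ip 400 mg/kg and 0 rose and 2 fell at iv 400 mg/kg, shares below those of all genes. At ip 400 mg/kg 0 rose and 3 fell with centred arrays, 1 rose and 5 fell after quantile normalization, and 2 rose and 3 fell without the 4 iv arrays. In ip saline 4 of the 14 myeloid genes (Itgam, Ccr2, Ms4a7 and Ncf4) averaged at or below the table median, and in iv saline 3 (Itgam, Ms4a7 and Ncf4). So did 1 of the 6 mesangial and renin cell genes, Thy1, in both saline groups. Injury, myeloid and mesangial genes this low in saline could pass the filter through the groups where they were high, so their rises carry no separate support. The part of the shifts in these cell markers in the fall of Nphs1 was not tested.

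The genes whose pattern was most like that of Nphs1 were sought over all 48 arrays, after each gene was centred within its route. They were Scly, a selenocysteine lyase (r = 0.80), Ace, the angiotensin-converting enzyme (0.78), Pex6 of peroxisome assembly (0.76), the glutathione transferase gene Gsta2 (0.75), malic enzyme Me1 (0.75) and the brush border aminopeptidase gene Anpep (0.75). None of these stands in the podocyte lists. The arrays share their treatment groups, which enters these correlations. With group means removed as well, the same genes correlated with Nphs1 at 0.47, 0.48, 0.46, 0.38, 0.41 and 0.43.

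These 6 genes were chosen on the same 48 arrays for their likeness to Nphs1, so their values are a description and carry no test. Relative to ip saline they differed at ip 400 mg/kg by -1.41 (Scly), -1.70 (Ace), -1.09 (Pex6), -2.92 (Gsta2), -1.10 (Me1) and -1.97 (Anpep), beside -1.04 for Nphs1. Their differences between iv 400 mg/kg and iv saline were -0.68, -0.96, -0.65, -1.44, -0.61 and -1.03 in the same order, beside -0.08 for Nphs1. Of the genes least like Nphs1, the splicing regulator Ptbp3 reached r = -0.79 and the translation factor subunit Eif3e -0.78. The receptor gene Tnfrsf13b reached -0.76 and the recombination factor gene Sfr1 -0.75. Tnfrsf13b averaged 4.54 at ip 400 mg/kg and below the table median of 3.47 in every other group, so it could pass the filter through that group alone.

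**Figure D5:**
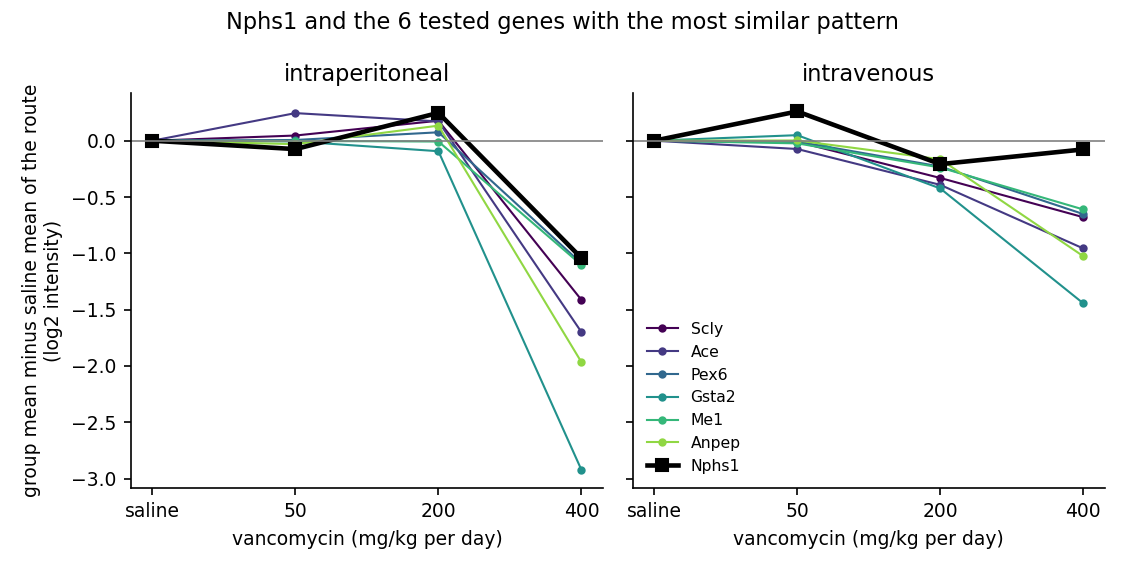
Group means minus the saline mean of the route (log2 intensity) by daily dose, ip at the left and iv at the right, for Nphs1 (black squares) and the 6 tested genes most like it (coloured lines). All 7 are lowest at ip 400 mg/kg, between -2.92 and -1.04, whereas at iv 400 mg/kg Nphs1 lies at -0.08 and the others between -1.44 and -0.61.

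The likeness of Nphs1 to the fixed lists was also described. The 14 proximal tubule genes correlated with it at 0.57 to 0.73 after route centring, with a median of 0.67. The 9 loop and distal tubule genes did so at 0.49 to 0.69, with a median of 0.61. The 11 collecting duct and medulla genes had a median of 0.41. The medians of the tubular injury and myeloid lists were -0.68 and -0.69. The other 15 slit diaphragm genes had a median of -0.57, with 2 of the 15 above 0, and the median over all tested genes was -0.09. Among podocyte genes the highest values were those of Bmp7 (0.71), Vegfa (0.68) and Col4a4 (0.66). The treatment group means enter these values too. With group means removed, the proximal tubule genes had a median of 0.15, from 0.02 to 0.38, and the slit diaphragm genes a median of -0.02. Loop and distal tubule genes then had a median of 0.16, collecting duct and medulla genes 0.08, injury genes -0.30 and myeloid genes -0.24. The median over all tested genes was then 0.02, and Bmp7, Vegfa and Col4a4 stood at 0.34, 0.18 and 0.34.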

How the data were processed

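The deposited table holds linear intensity values, for which the submitters' processing notes name GCRMA. Its version and the set of arrays processed as 1 batch are not stated there. The lowest deposited intensity was 1.78 and the highest 63594, 0 were missing and no arrays were identical. The deposited intensities were turned into log2 values with no offset. Groups came from the labels, which name no batch. Each mouse was treated as 1 independent sample, and the number of arrays limits the precision.

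Names were given in 3 stretches of the table whose values follow the identifiers at a constant offset, 24.4% of the probe sets and 7859 genes. Of several probe sets of a gene the brightest by mean was used. The 5748 genes whose log2 value exceeded the table median of 3.47 on 6 or more arrays were fitted together over the 8 groups with limma 3.58.1 in R 4.3.3 (eBayes with trend), with Benjamini-Hochberg adjustment over all of them and a threshold of 0.05. Intervals are 95%. Exact permutation tests used all 924 splits of 6 against 6. Gene names were updated through RefSeq.

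The gene, the lists and the tests were chosen with earlier results of these data known. Named genes were all tested slit diaphragm genes and up to 6 with the largest called change at 400 mg/kg in each other podocyte list. Wt1 and Podxl, and the 6 genes most and 4 least like Nphs1, were named too. Sema3g, Rab3b, Col4a4 and Hspg2 were added after their values were seen. Alternatives covered the scaling, the filter, array weights, the groups fitted, the naming and each mouse left out. Leaving out the 4 iv arrays that stood apart, whose medians lay over 0.09 from their group's median, was added after the data were seen.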

Additional observations from a re-analysis of the deposited data

Results flagged for a closer look

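One iv saline mouse had a Nphs1 level of 4.73 (log2 intensity), far below the other 5 mice of its group, and the gap took up 0.81 of the group's range, above the critical value of 0.625 for 6 samples. It was the only such value among the 8 groups, and chance gives a value of this kind in about 1 group of 20. Without this mouse the route difference at 400 mg/kg was -0.85 (limma, adjusted p = 0.029) and the difference between iv 400 mg/kg and iv saline was -0.19 (adjusted p = 0.37).

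The effect of 400 mg/kg differed between the ip and the iv route in 4 of the 52 tested podocyte genes by limma's interaction test, beside 4.31% of all tested genes. The call for Pard3 ended without the 4 iv arrays and after quantile normalization, and that for Foxc2 with centred arrays. The ip effect minus the iv effect was -0.96 for Nphs1, 0.66 for Pard3, 1.02 for Foxc2 and -0.82 for Hspg2 (log2).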

How the results depend on the processing

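Of 133 values of Nphs1 under other settings 125 kept their direction and their side of the threshold, 5 no longer passed and 3 changed sign, as did 2 of 180 with 1 mouse left out. With the values listed beside the Nphs1 identifier, the differences were -0.23 for ip 400 mg/kg minus ip saline, -0.31 for ip 400 minus ip 200 mg/kg, -0.29 for the route difference at 400 mg/kg, 0.10 for ip saline minus iv saline, 0.0407 for ip 50 mg/kg and 0.0597 for iv 400 mg/kg against saline. None of these passed in limma's adjusted test. Array weights gave -0.00581 for iv 400 minus iv 200 mg/kg. Quantile normalization gave 0.32 for ip saline minus iv saline, and 1 of 7 neighbouring pairs then differed, against 0 as deposited. With each mouse left out in turn, ip 400 mg/kg minus ip saline ran from -1.11 to -0.93, ip 400 minus ip 200 mg/kg from -1.40 to -1.22 and the route difference at 400 mg/kg from -1.06 to -0.85, all past the threshold. The difference between iv 400 mg/kg and iv saline ran from -0.19 to 0.0133, changing sign without iv 400 mg/kg mouse 43, and that between ip 50 mg/kg and ip saline from -0.14 to 0.0416, changing sign without ip saline mouse 61. The other ranges were 0.14 to 0.33 for iv 50 and -0.32 to -0.13 for iv 200 mg/kg against iv saline, 0.18 to 0.36 for ip 200 mg/kg against ip saline, 0.06 to 0.23 for iv 400 minus iv 200 mg/kg, -0.41 to -0.21 and 0.38 to 0.57 for the route difference at 50 and 200 mg/kg, and 0.70 to 0.88 for ip saline minus iv saline. The iv 200 mg/kg difference was -0.08 with array weights. The cause of these changes was not tested. No paired analysis was possible because no mouse number is shared between groups.

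The number of genes called moved by over 1.5 times in these cases. It was 31 at iv 50 mg/kg and 90 with array weights, 423 at iv 200 mg/kg and between 76 (only those groups fitted) and 1398 (array weights), and 5 at either lower ip dose and between 0 and 18. At ip 50 mg/kg the 0 came with only those groups fitted by limma, and array weights gave 13. The route difference was called in 248 genes at 400 mg/kg and between 76 and 644, and in 56 at 200 mg/kg and between 24 and 714. At 50 mg/kg it was called in 11, and in 51 with array weights. For ip saline minus iv saline it was 3316, against 2138 with centred arrays and 1344 after quantile normalization. Naming every probe set as listed tested more genes, 12962, and called 7630 at ip 400, 5835 at iv 400, 872 at iv 200 and 110 at iv 50 mg/kg. It also called 7442 for ip 400 minus ip 200 mg/kg, against 3481, and 3471 for iv 400 minus iv 200 mg/kg, against 1796. For ip saline minus iv saline it called 7820, and for the route difference at 50 mg/kg 32.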
